A study of Mus musculus with 4 samples.

Results

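Aminoacyl-tRNA synthetases and the scaffold proteins of their complex were followed in immature T-lineage cells of mice. The genes were chosen by symbol alone (the single-letter amino acid code followed by "ars", with Eprs and the Aimp genes), from the platform annotation. The symbol rule used no measured value, but the members were chosen with earlier results of these data known. The rule found 75 probe sets with 1 gene symbol, which represent 37 of the 18193 genes on the array. Of these, 17 encode cytosolic enzymes or enzyme subunits, 2 (Gars and Kars) enzymes that serve both the cytosol and mitochondria, 16 mitochondrial enzymes (symbols ending in 2) and 2 (Aimp1 and Aimp2) scaffold proteins.

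RNA was measured on 4 Affymetrix Mouse 430 2.0 arrays. The cells were double-positive (DP) for the co-receptors CD4 and CD8, and all came from a C57/BLACK6 background that the labels call wild type. The normal group held 2 arrays of DP cells from thymus with the genotype label WT. The tumour group held 2 arrays of DP cells from a peripheral tumour (thymoma) that over-expresses Notch1-IC, the active intracellular part of the Notch1 receptor, with the genotype label T-ALL (T-cell acute lymphoblastic leukaemia). Neither the promoter behind Notch1-IC nor the age or number of the mice is given in the labels. The sample type label describes the normal samples as tumour cells too, against their titles, source names and genotypes, which were followed. The labels do not tie replicate arrays to different animals, so the p-values rest on a spread between arrays that could be purely technical. Tissue site, transformation and any batch run with a group cannot be told apart, and in bulk RNA fewer cells of a type cannot be told apart from less RNA per cell.

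Aminoacyl-tRNA synthetases join each amino acid to its tRNA, the step that fixes the genetic code in translation. They fall into class I and class II by the fold of the catalytic domain. Cytosol and mitochondria mostly use enzymes from separate nuclear genes. Several cytosolic synthetases of animals sit together in a multi-synthetase complex held by the scaffold proteins Aimp1, Aimp2 and Eef1e1. Uncharged tRNA activates the kinase Gcn2 (Eif2ak4), and the transcription factor ATF4 that is then made induces many cytosolic synthetase genes. In growing lymphocytes, synthetases are known as part of the growth programme that MYC drives.

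As deposited, all arrays shared almost equal quartiles, and differences (log2, tumour minus normal) are relative to that scale. The background level was 12.3 to 17.8 intensity units, with 51.0% to 59.0% of probe sets above it, and was taken per array as the highest value among 27 bacterial control probe sets without spike signal. The BioB, BioC and BioD hybridization controls, which the standard array protocol adds in equal amounts, were 0.60 higher in the tumour arrays. Setting the arrays equal on these controls lowered every difference by that amount, took the all-gene median from 0.09 to -0.51, and moved the share of higher genes among changed genes from 58.4% to 20.2%. The ratio of 3' to 5' beta-actin probe sets was 1.28 and 1.20 in the normal arrays and 2.46 and 2.53 in the tumour arrays, and that of Gapdh went from 0.912 and 0.897 to 1.84 and 1.85. An 18S rRNA probe set read 2495 and 2359 in normal and 8553 and 8636 in tumour arrays. Of 10 measured DP markers, 8 fell and 1 rose, all 10 stayed above background in both groups, and their summed intensity went from 65291 to 65693 down to 30891 to 31435. Of 12 macrophage markers, 10 rose and 0 fell, with summed intensities of 114 to 157 in normal and 2273 to 2421 in tumour arrays, and in both normal arrays 7 of them (C1qa, C1qc, Fcgr3, Cd14, Mrc1, Cd163 and Mertk) did not exceed background. Of 9 neutrophil markers, 7 rose and 0 fell (sums of 195 to 260 against 2157 to 2208), and of 5 NK markers 3 rose and 0 fell (1142 to 1174 against 5402 to 5428). Ltf and Lcn2 of the neutrophil list did not exceed background in the normal arrays, nor did Ncr1 of the NK list on any of the 4. Rises and falls were 4 and 0 of 7 dendritic cell markers, 0 and 1 of 4 B cell markers, 1 and 0 of 3 erythroid markers, and 1 and 1 of 5 thymic epithelial markers. The part that scaling, RNA quality or other cells have in the differences below was not tested.

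On the deposited scale, synthetase transcripts of the cytosol tended to be higher in the tumour arrays and those of mitochondria did not move together, whereas on the spike-control scale more members were lower than higher. With limma (trend and robust prior, Benjamini-Hochberg over all 18193 genes, threshold 0.05) 15 of the 37 genes passed, 14 higher and 1 lower in tumour. Over all genes 29.7% passed (17.3% higher and 12.4% lower), and among the 9308 genes above background on all 4 arrays 51.6% passed (29.1% higher and 22.5% lower), a larger share than among the members. The latter is the nearer reference, since 36 of the 37 members were above background on all 4 arrays, with Mars2 at or below it on 1 tumour array. Among the cytosolic genes 9 of 17 rose and 0 fell, with a median difference of 0.42. Among the mitochondrial genes 2 of 16 rose and 1 fell, with a median of -0.05. The median of the 9308 genes was 0.08. Both tumour arrays lay above both normal arrays in 12 cytosolic and 4 mitochondrial genes, and below them in 2 and 6. Over all genes 33.7% lay above and 26.4% below, and over the 9308 genes 43.7% above and 34.7% below. With the arrays set equal on the spike controls, 3 members rose (Vars, Aimp2 and Iars2) and 11 fell, against 7.31% and 28.9% of all genes. The medians were -0.18 for the cytosolic and -0.65 for the mitochondrial genes. Shares among the 9308 genes, the nearer reference, were not taken on this scale.

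The prior sets how many of these calls stand. With limma's default prior, which does not follow the fall of the replicate spread from a median SD of 1.31 in the dimmest 25% of genes to 0.0838 in the brightest 25%, 0 of 37 members passed against 6.38% of all genes (4.17% higher and 2.2% lower). The lowest adjusted p of the members was then 0.0560, and 14 had an unadjusted p below 0.05, 13 of them higher in tumour. With this prior too, no share was taken among the genes above background on all 4 arrays.

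**Figure D1:**
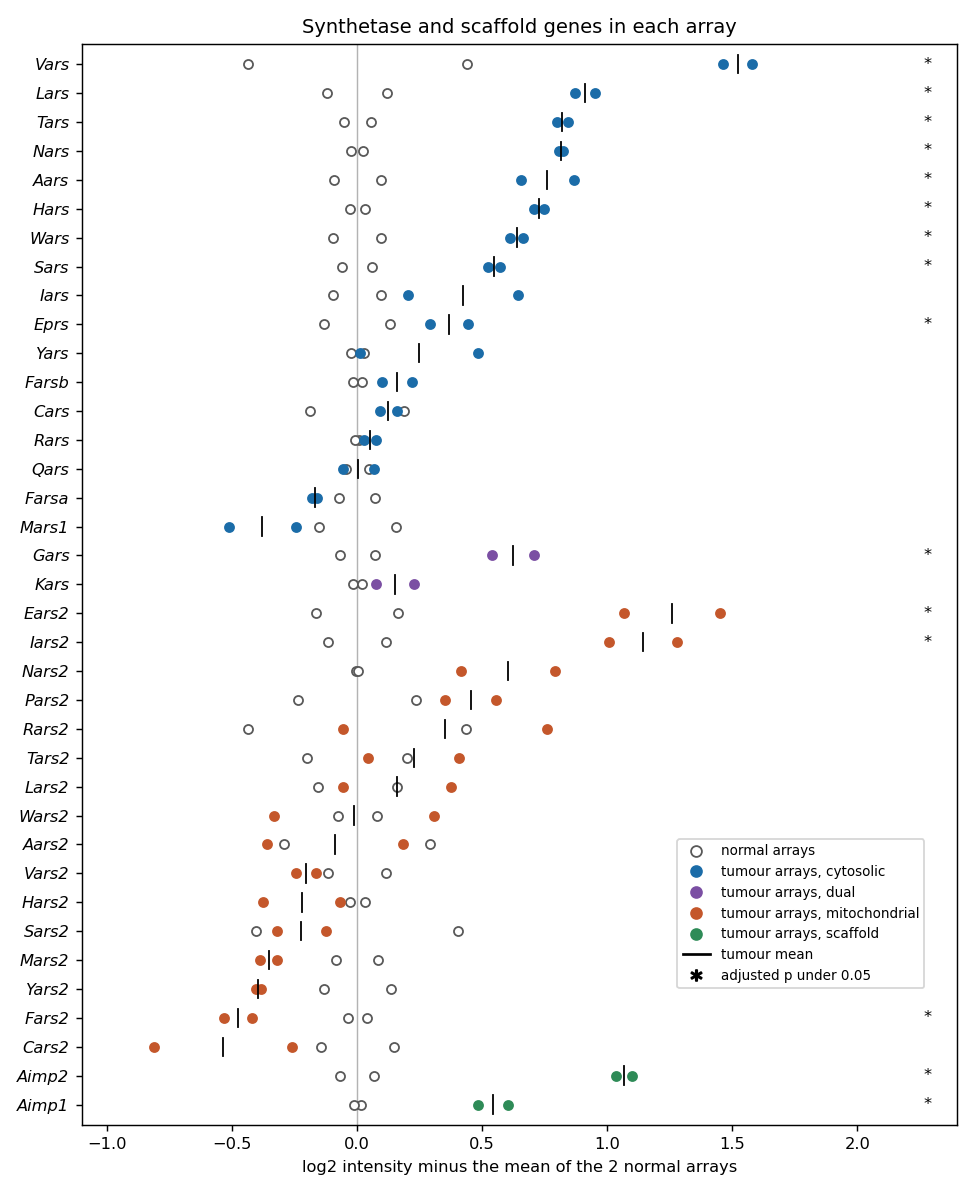
Log2 intensity of each synthetase and scaffold gene on every array, less the mean of the 2 normal arrays, on the deposited scale. Open circles are normal arrays, filled circles tumour arrays coloured by class, short lines tumour means, and asterisks mark an adjusted p under 0.05. Filled circles of 12 cytosolic genes lie to the right of both open circles, against 4 of 16 mitochondrial genes.

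Of the cytosolic enzymes, Vars, which charges valine, had the largest difference. It read 212 and 115 intensity units in the normal arrays and 430 and 467 in the tumour arrays. Both tumour arrays lay above both normal arrays, and the normal arrays lay further apart than the tumour arrays. The difference was 1.52 ± 0.24 (log2, SE, n = 2 arrays per group), a 2.87-fold rise (adjusted p = 0.000907). It ranged from 1.08 without normal replicate 2 to 1.96 without normal replicate 1 and passed the test each time.

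Lars, the leucine enzyme, read 358 and 303 in normal and 636 and 601 in tumour arrays. The groups were well apart, and the difference was 0.91 ± 0.12 (1.88-fold, adjusted p = 0.000242). Lars is held in the multi-synthetase complex and also serves as a leucine sensor of the mTORC1 pathway.

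Tars, the threonine enzyme, read 541 and 502 against 907 and 933. Nars, the asparagine enzyme, read 822 and 849.7 against 1463 and 1477. Replicates of both lay close together and the groups far apart, with differences of 0.82 ± 0.09 for Tars (adjusted p = 0.000107) and 0.82 ± 0.08 for Nars (adjusted p = 4.21e-05).

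Aars, the alanine enzyme, read 321 and 365 against 623 and 538, a difference of 0.76 ± 0.12 (adjusted p = 0.000930). Hars, the histidine enzyme, read 1819 and 1743 against 2991 and 2909, a difference of 0.73 ± 0.07 (adjusted p = 3.40e-05). Neither gene had overlapping groups. Hars has the smallest standard error of the 37 members.

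Wars charges tryptophan and is known to be induced by interferon gamma. It read 165 and 145 against 245 and 236, without overlap, and rose by 0.64 ± 0.15 (adjusted p = 0.00805). Sars, the serine enzyme, read 706 and 649 against 973 and 1006, and rose by 0.55 ± 0.09 (adjusted p = 0.00117). The Wars call ended without normal replicate 2 and without tumour replicate 1 (adjusted p = 0.0572 in each case), and with the mean of its 4 probe sets in place of the brightest (0.37, adjusted p = 0.238), whereas the Sars call held without each array in turn.

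Eprs, a single chain that charges both glutamate and proline, read 562 and 468 against 628 and 698. The mean of its 4 probe sets gave a larger difference (0.63, adjusted p = 0.00798). On the brightest one the groups did not overlap, but the difference of 0.37 ± 0.12 was the smallest that passed (adjusted p = 0.0400). The call ended without normal replicate 2 (adjusted p = 0.239), tumour replicate 1 (adjusted p = 0.0819) or tumour replicate 2 (adjusted p = 0.239).

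The other 8 cytosolic genes did not pass the test, and their differences ranged from -0.38 to 0.42. Iars, the isoleucine enzyme, read 424 and 372 against 457 and 619 on its brightest probe set, a difference of 0.42 ± 0.15 (adjusted p = 0.0628). Mars1, the methionine enzyme that charges initiator tRNA too, went the other way. It read 481 and 595 against 452 and 374, and both tumour arrays lay below both normal arrays, with a difference of -0.38 ± 0.14 (adjusted p = 0.0682). For Yars, the tyrosine enzyme, the groups overlapped (164 and 158 against 226 and 163).

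For the remaining 5 cytosolic genes, as for Yars (-0.16 to 0.66), the interval of the difference included 0. Qars, the glutamine enzyme, read 989.7 and 1054 against 981 and 1069.8, with overlapping groups and a 95% interval from -0.19 to 0.20. The intervals ran from -0.16 to 0.26 for Rars (arginine), from -0.05 to 0.37 for Farsb and from -0.48 to 0.14 for Farsa, the beta and alpha subunits of the phenylalanine enzyme. For Cars, the cysteine enzyme, the interval from -0.38 to 0.62 was wider, since its brightest probe set read only 72.3 to 93.9 on any array. On the spike-control scale Qars, Rars, Farsa, Farsb and Mars1 fell instead, by 0.60, 0.55, 0.77, 0.44 and 0.98.

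The pair of genes that serve both compartments differed in outcome, a contrast that was not itself tested. Gars, the glycine enzyme, read 807 and 888 against 1381 and 1228, without overlap, and rose by 0.62 ± 0.09 (adjusted p = 0.000726). Kars, the lysine enzyme, read 904 and 926 against 1070.0 and 963, a difference of 0.15 ± 0.09 that did not pass (95% interval -0.05 to 0.35). On the spike-control scale Gars stood at 0.02 and Kars fell by 0.45.

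Both scaffold genes rose on the deposited scale. Aimp2 read 246 and 270.0 against 528 and 551, a difference of 1.07 ± 0.11 (2.10-fold, adjusted p = 6.95e-05). Aimp1, whose protein is also cleaved to a cytokine-like fragment, read 938 and 919 against 1408 and 1297, a difference of 0.54 ± 0.08 (adjusted p = 0.000798) that was -0.06 on the spike-control scale. The groups of both genes were apart, with tumour arrays close to each other.

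Membership of the complex and the enzyme class, which the choice of genes did not use, split the cytosolic and dual genes as follows. Of the 7 enzymes of the complex that were analysed here 2 rose (Lars and Eprs), with a median of 0.15, and of the 12 outside it 8 rose, with a median of 0.63. Of 9 class I enzymes 3 rose (Vars, Lars and Wars), with a median of 0.25, and of 9 class II enzymes 6 rose, with a median of 0.62. Eprs holds domains of both classes and was left out of the second split. These are counts of few genes, no difference between them was tested, and the 29.1% of well-measured genes that rose is the share to read them against.

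**Figure D2:**
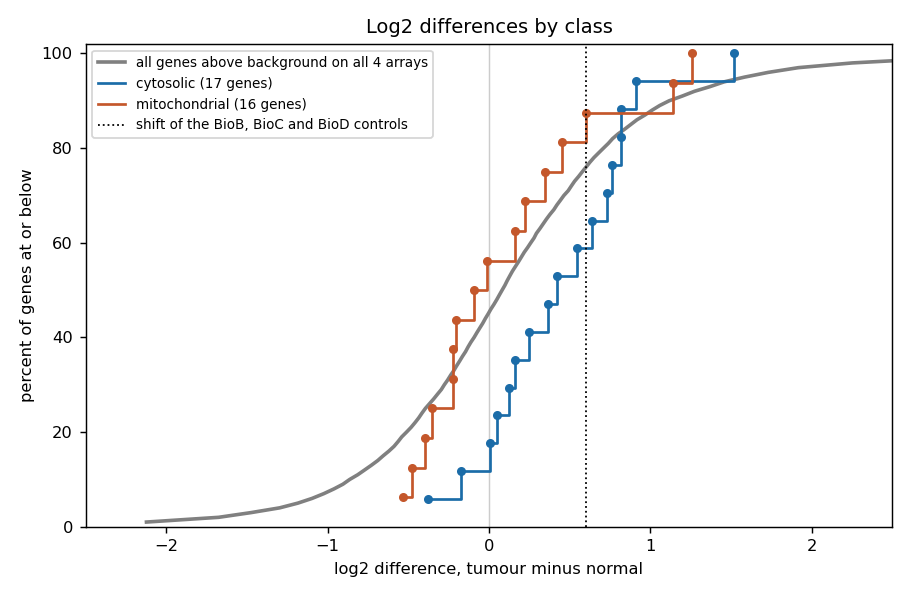
Cumulative percent of genes by log2 difference (tumour minus normal) for the 17 cytosolic genes, the 16 mitochondrial genes and all 9308 genes above background on all 4 arrays. The dotted line marks the 0.60 shift of the spike controls, where 0 would lie on their scale. The medians lie at 0.42 for the cytosolic genes, -0.05 for the mitochondrial genes and 0.08 for all genes above background.

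The mitochondrial enzymes charge the tRNAs used to translate the few proteins encoded by mitochondrial DNA. Their transcripts were measured less precisely than those of the cytosolic enzymes, with a median SE of 0.22 against 0.12. Iars2, for isoleucine, read 196 and 167 in normal and 364 and 439.9 in tumour arrays. It was the clearest of the class, with separate groups and a difference of 1.14 ± 0.15 (2.21-fold, adjusted p = 0.000246), and 0.54 on the spike-control scale (adjusted p = 0.0156).

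Ears2, for glutamate, read 37.2 and 29.6 against 90.7 and 69.5 on its brightest probe set. The other Ears2 probe set above background on all 4 arrays read 40.4 and 26.7 against 29.3 and 16.9. That probe set pointed down (-0.56 ± 0.46) and did not pass. On the brightest one the groups were apart and the difference was 1.26 ± 0.29 (adjusted p = 0.00896). It did not pass without normal replicate 2 (1.09, adjusted p = 0.0590) or without tumour replicate 1 (1.07, adjusted p = 0.0782), nor as the mean of its 4 probe sets (0.90, adjusted p = 0.332).

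Fars2, for phenylalanine, was the only member called lower on the deposited scale, where it read 258 and 271 against 183 and 197. Its groups were apart and the difference was -0.48 ± 0.13 (adjusted p = 0.0225), but the call ended without any 1 of the 4 arrays (adjusted p from 0.0565 to 0.119) and with the mean of its 2 probe sets (-0.05, adjusted p = 0.929).

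The other 13 mitochondrial genes did not pass, with differences from -0.54 to 0.60. Nars2 (asparagine) read 82.3 and 82.8 against 143 and 110.2 and was nearest to the threshold, at 0.60 ± 0.21 (adjusted p = 0.0537). At the other end, Cars2 (cysteine) read 108 and 88.0 against 81.3 and 55.5, at -0.54 ± 0.25 (adjusted p = 0.162). In Aars2, Lars2, Rars2, Sars2, Tars2 and Wars2 the arrays of the groups overlapped. The 95% intervals ran from -0.36 to 1.06 for Rars2 and from -0.95 to 0.50 for Sars2. Mars2 read 19.6 and 17.5 against 14.8 and 14.2, close to background on all arrays. Yars2, Hars2, Vars2 and Pars2 lay between -0.39 and 0.45.

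For 13 amino acids a single cytosolic and a single mitochondrial gene could be set side by side. The cytosolic difference was above the mitochondrial difference in 10 pairs and below it in 3 (Iars, Mars1 and Rars). In 8 pairs only the cytosolic gene passed the test, in 1 pair (isoleucine) only the mitochondrial gene, and in 4 pairs neither. Valine gave the widest gap, with 1.52 for Vars against -0.20 for Vars2. For histidine the values were 0.73 for Hars and -0.22 for Hars2. Isoleucine went the other way, with 0.42 for Iars against 1.14 for Iars2. These gaps do not depend on the scaling of the arrays, but none was tested. The lower precision of the mitochondrial genes bears on the counts of calls. Both gaps and counts rest on the brightest probe set of each gene. With the probe sets of each gene averaged, Tars2 passed (0.71, adjusted p = 0.0196) and Wars did not. Nars (0.46) then lay below Nars2 (0.77), and Mars1 (-0.38) above Mars2 (-1.09).

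Probe sets of the same gene did not always tell the same story, and 24 of the 37 genes had 2 to 4 of them. Tested over all 45037 non-control probe sets, of which 22.8% passed (11.3% higher and 11.5% lower), 20 of the 75 synthetase probe sets rose and 3 fell. They belonged to 16 genes with a higher and 3 genes with a lower probe set. No gene had probe sets called in opposite directions. Of the 75, 62 lay above background on all 4 arrays, against 19493 of the 45037, and 3 at or below it on all 4. The 22.8% is therefore not a like reference for the members, and the share among probe sets above background was not taken. A further probe set that the annotation shares between Aars and Exosc6 rose by 0.52 ± 0.11 and was not counted.

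Iars was the clearest case of disagreement. Its second probe set read 396 and 341 in normal and 233 and 192 in tumour arrays, below both normal arrays, and fell by 0.80 ± 0.15 (adjusted p = 0.00325). The brightest one, given above, pointed up. No direction is therefore given for Iars.

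Some genes had 1 probe set that moved and 1 that hardly did. For Nars, the probe set next in brightness read 577 and 578 against 624 and 613, a difference of 0.10 ± 0.10, and for Sars the values were 727 and 633 against 744 and 721, a difference of 0.11 ± 0.10. Neither passed, although a sister probe set of each gene did. Aars (0.76 and 0.44) and Aimp2 (1.07 and 0.35) gave the same direction at unequal size, with the smaller value short of the threshold.

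In other genes a dimmer probe set passed where the brightest did not. Of 4 Eprs probe sets, 2 rose by 1.02 ± 0.11 and 0.96 ± 0.18, with 394 and 382 against 851 and 728 for the first of them, while the brightest (0.37) and the dimmest (0.17) did not pass over all probe sets. Tars2 had a second probe set at 66.0 and 71.0 against 149.9 and 164, a difference of 1.20 ± 0.19 (adjusted p = 0.00131), on a class of probe set that may bind other transcripts. Of 4 Qars probe sets 1 of that class passed, at 0.35 ± 0.10, and the others lay between 0.00 and 0.11. A Cars2 probe set fell by 1.62 ± 0.43 (70.6 and 69.0 against 14.6 and 35.4), with 1 tumour array at or below background, while the others read -0.54 and -0.20 and did not pass.

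Hars was the 1 gene with several probe sets that all passed, both higher (0.73 and 0.60). Of 4 Wars probe sets 3 rose. The brightest (0.64) and 1 other (0.75) were of the class that may bind other transcripts, and 1 without that mark rose by 0.66. The remaining one, at -0.58, did not pass and lay at or below background on 1 array of each group. The suffix of the brightest probe sets of Aars, Aimp2, Eprs, Fars2, Hars and Sars also marks possible binding to several transcripts. Of 4 Ears2 probe sets only the brightest passed, and the others read -0.56, 0.75 and 2.14. The last of these lay at or below background on all 4 arrays. Where along the transcripts the probe sets lie is not given in the sources used here, and the 3' to 5' ratios above differed between the groups, so uneven coverage of the transcripts and a change of isoform cannot be told apart from a change of level.

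**Figure D3:**
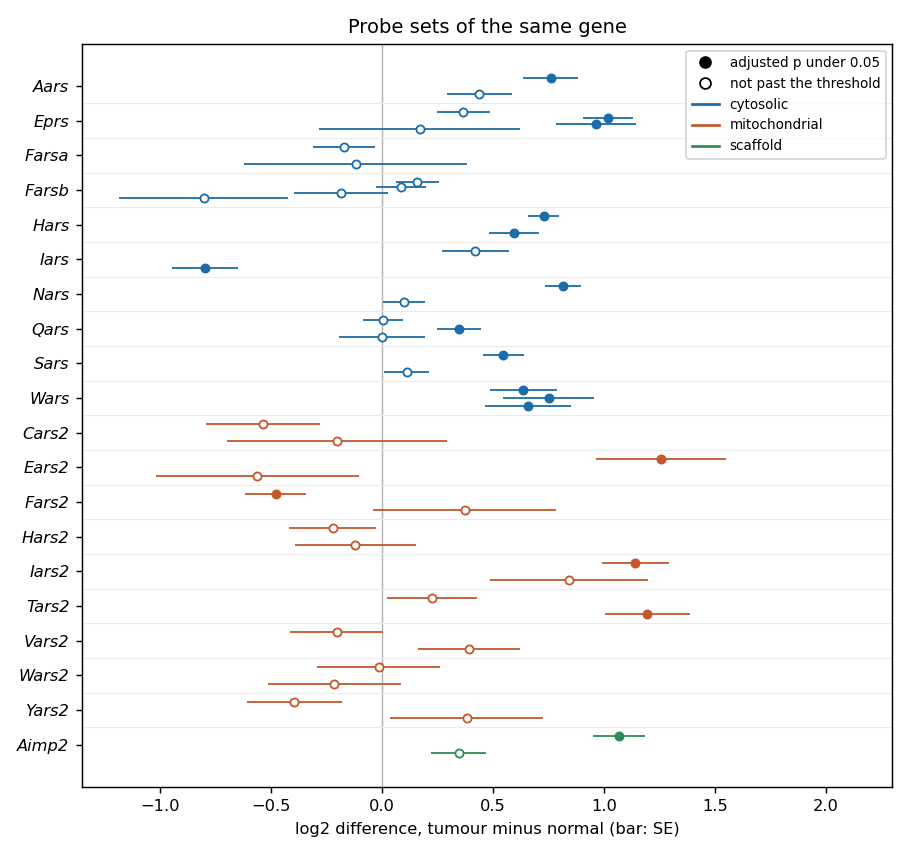
Log2 difference (tumour minus normal, bars show SE) of each probe set, for genes with several probe sets above background on all 4 arrays, brightest on top within a gene. Filled circles have an adjusted p under 0.05 over all probe sets. The circles of Hars (0.73 and 0.60) lie close together, while those of Iars (0.42 and -0.80) lie on opposite sides of 0.

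Promoter sequences are shown for the 5 members that hold the motif TGATGNAA, the core bound by ATF4 with a C/EBP partner, because ATF4 is a known inducer of cytosolic synthetases. RefSeq promoters (GRCm38.p6, 250 bases before to 50 after a transcript start) were found for 28 of the 37 genes, with 30 promoters. On either strand TGATGNAA occurred in 5 of these 30 promoters against 3.97% of all 32851 promoters. Its genes were Aars, Gars, Iars, Tars and Yars, that is 4 of 10 cytosolic, 1 of 2 dual, 0 of 14 mitochondrial and 0 of 2 scaffold genes with a promoter. The E-box CACGTG, to which MYC and other factors bind, occurred in 5 promoters (Aars, Ears2, Farsb, Iars and Tars) against 7.15% of all. The CRE-type motifs TGACGTCA and TGACGCAA occurred in 0 of 30, against 1.79% and 0.490% of all. Each stretch below runs 5′ to 3′ from 150 bases before the start to 30 bases after it, with TGATGNAA (or its reverse complement) and CACGTG in capitals. No TGATGNAA match overlapped a CACGTG match.
Aars, chr8:111033692-111033871, plus strand: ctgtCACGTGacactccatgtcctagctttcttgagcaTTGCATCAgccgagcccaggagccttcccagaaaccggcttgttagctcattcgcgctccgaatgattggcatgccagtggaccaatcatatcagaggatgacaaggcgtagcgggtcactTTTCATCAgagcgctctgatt
Gars, chr6:55037851-55038030, plus strand: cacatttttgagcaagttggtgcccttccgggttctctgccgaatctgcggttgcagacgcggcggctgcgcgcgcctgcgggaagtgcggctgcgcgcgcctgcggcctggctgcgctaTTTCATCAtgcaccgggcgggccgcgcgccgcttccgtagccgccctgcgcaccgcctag
Iars, chr13:49681980-49682159, plus strand: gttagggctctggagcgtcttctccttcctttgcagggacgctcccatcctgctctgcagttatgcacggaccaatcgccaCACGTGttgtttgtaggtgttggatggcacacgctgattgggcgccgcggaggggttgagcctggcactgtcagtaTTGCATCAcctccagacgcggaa
Tars, chr15:11399629-11399808, minus strand: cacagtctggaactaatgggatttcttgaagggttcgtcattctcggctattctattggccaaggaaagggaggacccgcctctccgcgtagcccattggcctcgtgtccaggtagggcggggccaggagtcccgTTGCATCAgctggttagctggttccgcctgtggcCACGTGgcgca
Yars, chr4:129189753-129189932, plus strand: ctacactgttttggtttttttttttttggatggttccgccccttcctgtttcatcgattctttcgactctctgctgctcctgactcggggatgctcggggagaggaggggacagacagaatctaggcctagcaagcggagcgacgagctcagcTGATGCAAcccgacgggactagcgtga

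Aars held 2 matches to TGATGNAA and the E-box, and Iars and Tars 1 of each. Of the 5 genes, Aars, Tars and Gars rose on the deposited scale as given above, and Yars did not pass. On the spike-control scale Aars (0.16), Tars (0.22) and Gars (0.02) did not pass either. Iars is given no direction, since its brightest probe set did not pass and its second fell. Among genes that rose without the motif in this window were Sars and both scaffold genes. A match is a description of the letters and not a bound site.

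Other genes of tRNA use were counted from lists, to be read against the 29.1% higher and 22.5% lower among all genes above background, and no list was tested. All list values are on the deposited scale, and a rise smaller than the 0.60 shift of the spike controls is negative on their scale. Among the rises named below, this holds for Aarsd1, Gfm1, Qrsl1 and Trnt1. It also holds for the medians of the accessory factors and of the factors that carry charged tRNA. Of 12 measured accessory factors of charging 4 rose and 0 fell, with a median of 0.42, a share of rises near that background. They were Dtd1, which removes D-amino acids from tRNA (199 and 187 against 418 and 339, 0.96 ± 0.14), Qrsl1, a subunit of the mitochondrial enzyme that makes glutamine on tRNA (0.59 ± 0.17), Trnt1, which adds the CCA end (0.49 ± 0.14), and Aarsd1, an editing factor for alanine tRNA (0.46 ± 0.15). Eef1e1, the remaining scaffold protein of the complex, did not pass, at 0.23 (adjusted p = 0.138).

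Among 7 factors that carry charged tRNA to ribosomes or move it there, 5 rose and 2 fell, with a median of 0.49, beside 29.1% and 22.5% of genes above background. Eef1d, an exchange factor of cytosolic elongation, read 2078 and 1904 against 3384 and 3275 and rose by 0.74 ± 0.07. In mitochondria the elongation factors diverged. Tsfm rose by 0.69 ± 0.12 and Gfm1 by 0.51 ± 0.12, whereas Tufm, the factor that delivers charged tRNA there, read 386 and 367 against 267 and 261 and fell by 0.51 ± 0.11. Eef1a1, which does so in the cytosol and was named after its value was seen, fell by 0.15 ± 0.05 (adjusted p = 0.0438). The Tufm probe set is of the class that may bind other transcripts, and other probe sets of these genes were not compared.

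Of 21 measured genes of tRNA production and export, 12 rose and 1 fell, with a median of 0.62, beside the same 29.1% and 22.5%. Xpot, the exporter of tRNA from the nucleus, read 226 and 257 against 789 and 818 and rose by 1.74 ± 0.11 (3.33-fold). Pop1, a subunit of RNase P that trims the 5' end, rose by 2.11 ± 0.22, Elac2, which trims the 3' end, by 1.45 ± 0.18, and Polr3e, a subunit of RNA polymerase III, by 1.40 ± 0.23. The member that fell was Maf1, the repressor of RNA polymerase III, at 2182 and 1929.9 against 1513 and 1356 (-0.52 ± 0.09, named after its value was seen).

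Of 18 genes of the response to uncharged tRNA and of ATF4, 6 rose and 3 fell, with a median of 0.60 and shares near the 29.1% and 22.5% of genes above background. Atf4 itself read 937 and 949 against 1106 and 1053, with both tumour arrays higher, and did not pass (0.20 ± 0.08, adjusted p = 0.114), and Eif2ak4, the sensor kinase, did not pass (1.01, adjusted p = 0.0846). Asns, asparagine synthetase and a classic ATF4 target, read 3.30 and 13.7 against 106 and 105 (adjusted p = 0.000886), with normal replicate 1 at or below background. The amino acid transporter Slc7a5 and the ATF4 partner Cebpb rose by 3.39 ± 0.12 and 2.29 ± 0.15. The genes that fell were the cystine transporter Slc7a11 (139.9 and 129 against 1.25 and 15.0, tumour replicate 1 at or below background) and, named after their values were seen, the factors Ddit3 (-0.82 ± 0.25) and Cebpg (-0.70 ± 0.11). Myc rose 6.84-fold (146 and 159 against 1097 and 993, adjusted p = 2.19e-07).

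**Figure D4:**
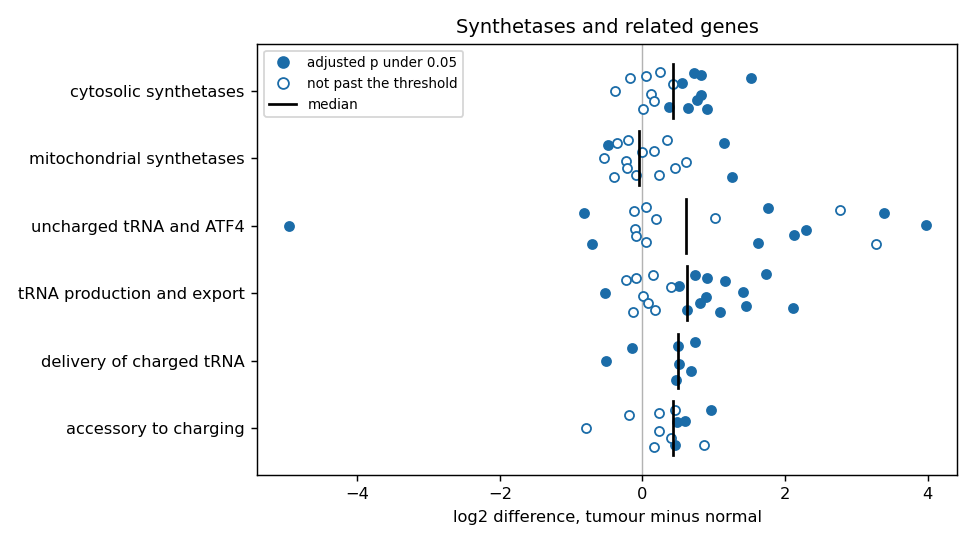
Log2 difference (tumour minus normal) of each cytosolic and mitochondrial synthetase gene and of each member of 4 lists of related genes, on the deposited scale. Filled circles have an adjusted p under 0.05 and vertical lines are medians, which lie at 0.42 for cytosolic synthetases, -0.05 for mitochondrial synthetases and between 0.42 and 0.62 for the lists.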

How the data were processed

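From 100 ng of column-purified total RNA, biotin-labelled cRNA was made with a 3' IVT kit, per the labels' protocols. The authors deposited 1 linear intensity per probe set and array for 45101 probe sets, and per the submitters' processing notes the tool was RMA (version not stated). Values below 1 are unusual for RMA, so the summary step is not settled. Here log2 was taken with no offset, 64 control probe sets were left out of tests, and of the 34945 probe sets with 1 symbol, the brightest of each gene (by mean log2) stood for that gene. All 37 members matched the RefSeq table of GRCm38.p6 by Entrez number, with 0 symbols changed.

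Tests used limma 3.58.1 (lmFit, then eBayes with trend and robust) in R 4.3.3 on all 4 arrays without covariates, two-sided, with Benjamini-Hochberg over 18193 genes (or 45037 probe sets) at 0.05. The 2 residual degrees of freedom were joined by 7.23 from the prior (median), against 0.989 with the default prior. Intervals are 95% and unadjusted. The fit was run on simulated data in which the spread followed intensity by construction, so that run cannot decide between the priors. The members, lists, test and prior were chosen with earlier results of these data known. The number of arrays limits the precision. Every member could be named, with up to 4 genes per related list by largest change and Myc. Atf4, Eif2ak4 and Eef1e1 were added for their roles, and others are marked as named after their values were seen. Alternatives covered the prior, scaling, filters, offset, choice of probe set, threshold, replicate block and leaving out each array.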

Additional observations from a re-analysis of the deposited data

How the results depend on the processing

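Trend without robust, median subtraction, quantile normalization and an offset of 16 changed no member's side of the threshold, and no call was the same under every alternative. With the default prior 759 genes were higher and 401 lower, and 0 synthetase genes and 0 synthetase probe sets were called in either direction. With spike scaling 1330 genes were higher and 5250 lower. Members were 3 higher and 11 lower, cytosolic genes 1 and 5 (median -0.18), mitochondrial genes 1 and 5 (median -0.65) and probe sets 5 and 19. On that scale the differences of, among others, Aimp1 (-0.059), Eprs (-0.23), Farsb (-0.44), Kars (-0.45), Qars (-0.60), Rars (-0.55) and Sars (-0.053) turned negative, because the same shift was taken from every gene. Requiring a log2 difference of at least 1 left 1561 genes higher and 835 lower, with 4 members higher and 0 lower, 1 cytosolic gene higher, 0 mitochondrial genes lower, and 6 probe sets higher and 1 lower. Averaging the probe sets of each gene gave 1865 genes higher, a cytosolic median of 0.33 and 0 members lower, mitochondrial ones included. Without the probe sets whose suffix marks possible binding to several transcripts, Iars read -0.80 (adjusted p = 0.00188) and was the 1 cytosolic gene lower. Aimp2 fell short (0.35, adjusted p = 0.0600), while Aars (adjusted p = 0.0456), Eprs, Hars and Wars (adjusted p = 0.0278) passed. Sars, Fars2, Tars2 and Yars2 had no probe set left, so the calls of Sars and Fars2 could not be checked. Among the mitochondrial genes left 0 were lower. The cytosolic median was 0.34, and 12 probe sets were higher and 1 lower. A filter at the 50th percentile of intensity called 2 members lower, of which 1 was cytosolic (Mars1, adjusted p = 0.0460). At a threshold of 0.01, 0 members were lower, mitochondrial ones included, and 1 probe set was lower.

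With the replicate number as a block, 3469 genes were higher and 2554 lower, no member's call was lost, and Iars, Mars1 and Nars2 passed (adjusted p = 0.0202, 0.0251 and 0.0351), which made 2 members and 1 cytosolic gene lower. Same-numbered arrays deviated together (r = 0.25 over 10772 probe sets), but with only 2 pairs and no label on pairing the arrays share only a number. Leaving out each array in turn kept 11 of 15 calls in every fit. The cytosolic median ranged from 0.33 to 0.57 and the mitochondrial one from -0.15 to 0.24. Mitochondrial genes called higher ranged from 1 to 3, members and mitochondrial genes called lower were 0 each time, and probe sets called lower ranged from 0 to 2. Iars passed without tumour replicate 1 (0.64, adjusted p = 0.0182) and Nars2 without tumour replicate 2 (0.79, adjusted p = 0.0456). A fit that leaves out an array assumes that the lone array varies like the other group. The cause of these changes was not tested. The number of arrays limits the precision, and of the members only Mars2 had an array at or below background.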
